A study of Mus musculus with 2 samples.

Results

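The hepatocyte-like cells of macroscopic lesions were 88 of the 212 cell barcodes kept in the droplet single-cell library of macroscopic hepatocellular carcinoma lesions from mice of the Rb family triple knockout model. They were chosen by a measured value. A barcode was kept if it had at least 1000 UMIs (distinct captured RNA molecules), at least 300 genes and at most 25% of UMIs from mitochondrially encoded genes, and it was a member if Alb, which encodes serum albumin, took at least 0.5% of its UMIs. Members made up 41.5% of kept barcodes (exact Clopper-Pearson 95% interval 34.8 to 48.5). They were split by Malat1, an RNA retained in the nucleus, at 0.05% of UMIs: 42 barcodes lay at or above that share and 46 below it. The cells were untreated, freshly digested from lesions, and sorted by flow cytometry for YFP, used to mark Cre recombination of floxed alleles. Whether the Rb family alleles were recombined in a given barcode, member or other, was not measured. The Cre driver, age and sex of the animals are not given in the sources used here, nor is the number of mice with macroscopic lesions. The series has 1 other library, of early lesions pooled from 3 mice of the same model and sorted in the same way. All macroscopic barcodes come from 1 library, so differences between groups of barcodes could not be checked in replicates, and the intervals given reflect counting error alone. Barcodes are not replicates of a condition.

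Hepatocytes make most plasma proteins and carry out ammonia disposal, lipid synthesis and the oxidation and conjugation of foreign compounds. The retinoblastoma proteins encoded by Rb1, Rbl1 and Rbl2 restrain E2F factors and so keep cells from starting DNA replication. Liver tumours often regain genes of the fetal liver, such as Afp, H19 and Igf2, and can express genes of bile duct epithelium, such as Epcam, Sox9 and Spp1.

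Alb separated the members with Malat1 from other barcodes by a wide gap, and those low in Malat1 by a narrow one. Among members with Malat1 the Alb share ran from 0.518% to 7.29% of UMIs with a median of 3.22%, and among members low in Malat1 from 0.572% to 9.68% with a median of 1.77%. Just inside the threshold lay values of 0.518%, 0.536% and 1.05% with Malat1, and just outside it 0.0639%, 0.0615% and 0.0609%. Low in Malat1 the values just inside were 0.572%, 0.598% and 0.623%, and those just outside 0.410%, 0.393% and 0.389%. The Malat1 threshold fell between members at 0.0524% and 0.0393%, and 33 of the 46 members below it had 0 Malat1 UMIs.

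**Figure D1:**
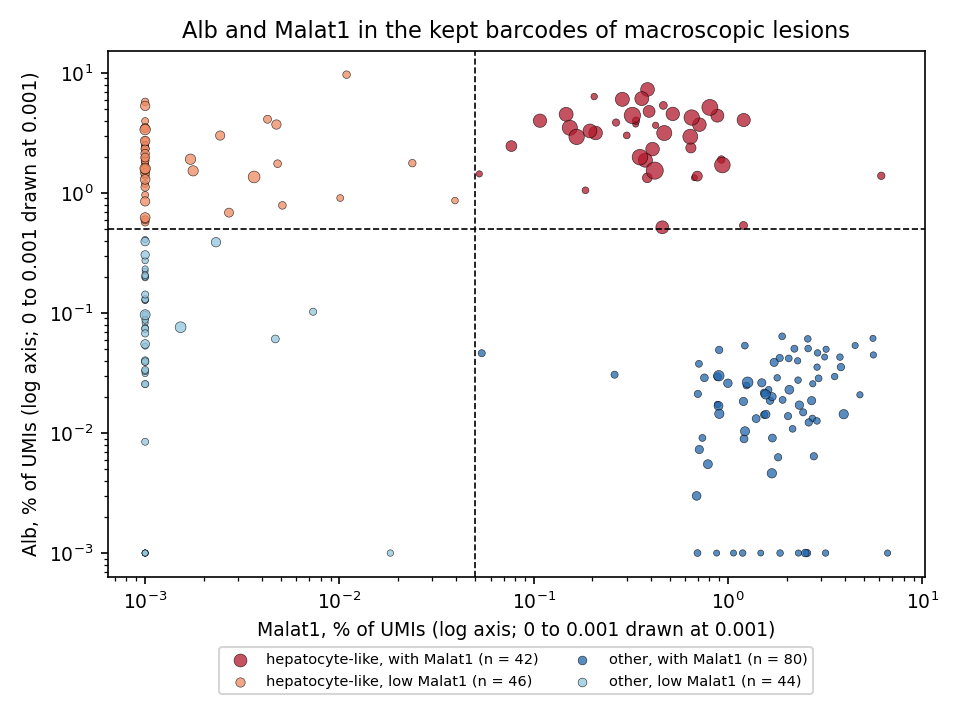
Each point is 1 of the 212 kept barcodes of macroscopic lesions, with its Malat1 share of UMIs on the horizontal log axis, its Alb share on the vertical log axis and an area that grows with its UMIs. Dashed lines mark 0.05% Malat1 and 0.5% Alb; the 42 members with Malat1 sit apart at the upper right, while the 46 low in Malat1 run down to the threshold, below which 44 other barcodes continue.

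The 2 groups of members differed in depth and in mitochondrial RNA. Members with Malat1 had a median of 113528 UMIs (1495 to 207658) and 8738 genes, and members low in Malat1 a median of 21981 UMIs (1322 to 82498) and 3531.5 genes. Mitochondrial RNA took a median of 7.56% of UMIs with Malat1 (0.0344 to 21) and 0.0811% when low (0 to 11.4), and it was under 1% in 3 of 42 and 40 of 46. Low Malat1, which the rule set, thus went with low mitochondrial RNA in most of these members. The other kept barcodes showed the same split, with 80 at or above the Malat1 threshold (median 13017.5 UMIs, 3.67% mitochondrial) and 44 below it (median 6058.5 UMIs, 0.0513% mitochondrial).

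A few members stood apart from their group. Of the 42 with Malat1, 3 had under 1% mitochondrial UMIs, 1 combined 6.14% Malat1 with 21% mitochondrial UMIs, and 1 of 24254 UMIs had the only Krt19 and Krt7 UMIs among members, 4 of each, with 600 Spp1, 37 Sox9 and 33 Epcam UMIs and 0 of H19, Tff3 and Spp2. Krt19 and Krt7 are keratins of bile duct cells, and this barcode was also 1 of 2 members called a doublet by Scrublet. Of the 46 low in Malat1, 6 had at least 1% mitochondrial UMIs, and 1, the deepest at 82498 UMIs, had 0.217% of its UMIs in macrophage markers, including 68 of the 73 Lyz2 UMIs of the group. Scrublet called 4 of 212 kept barcodes, and members of very high depth may hold more than 1 cell, which was not tested. No barcode sequence was shared between the libraries.

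The markers set beside Alb were spread through both groups of members. Tff3 (chromosome 17, 31125306 to 31129646, minus strand, mm10), a secreted trefoil peptide, had 429 CPM in the summed members with Malat1 (exact Poisson 95% interval 408 to 450) and 757 CPM in those low in Malat1 (710 to 806), where CPM is the usual scaling of a gene's UMIs to the total of the sum or barcode. By barcode it ran from 0 to 1311 CPM with a median of 326 CPM with Malat1, and from 0 to 1795 CPM with a median of 628 CPM when low. It had at least 1 UMI in 39 of 42 and 45 of 46. Only 4 of the 80 other barcodes with Malat1 had a Tff3 UMI, and their sum held 8.19 CPM (4.09 to 14.7).

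Spp2 (chromosome 1, 88406961 to 88426438, plus strand), which encodes a secreted phosphoprotein made by liver, had 148 CPM (136 to 161) with Malat1 and 277 CPM (249 to 307) when low. By barcode its medians were 124 CPM (0 to 434) and 235 CPM (0 to 626). It was found in 34 of 42 and 39 of 46 members, against 1 of 80 other barcodes with Malat1. Epcam (chromosome 17, 87635979 to 87651129, plus strand), an epithelial adhesion protein, was patchier. Its medians were 40.7 CPM (0 to 1361) and 56.2 CPM (0 to 340), with UMIs in 32 of 42 and 30 of 46. After every barcode was thinned to 5000 UMIs, which left out 4, 1, 12 and 17 shallower barcodes, Tff3 was present in 31 of 38 members with Malat1, 40 of 45 low in Malat1, 2 of 68 other barcodes with Malat1 and 22 of 27 others low in Malat1. Spp2 was present in 20, 27, 1 and 2 of these, and Epcam in 11, 11, 3 and 2.

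The imprinted pair H19 and Igf2 followed the same barcodes. H19 (chromosome 7, 142575529 to 142578143, minus strand), a fetal long noncoding RNA, had 2326 CPM (2278 to 2375) with Malat1 and 1133 CPM (1076 to 1193) when low, in 39 of 42 and 45 of 46 members. Igf2 (chromosome 7, 142650766 to 142666816, minus strand), a fetal growth factor, had 390 CPM (371 to 411) and 208 CPM (184 to 235), in 36 of 42 and 40 of 46. The 80 other barcodes with Malat1 held 37.2 CPM of H19 and 10.4 CPM of Igf2. The 44 other barcodes low in Malat1 did not resemble those 80. They held 3240 CPM of H19, 329 CPM of Igf2 and 796 CPM of Tff3, and 36 of them had UMIs of at least 1 of these genes together with a median of 0% (highest 0.0820%) in leukocyte, macrophage and endothelial markers and 0.0921% Alb. RNA of these genes thus reached below the Alb threshold among barcodes low in Malat1. In a comparison of members with all other barcodes these genes therefore also stand on the other side.

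**Figure D2:**
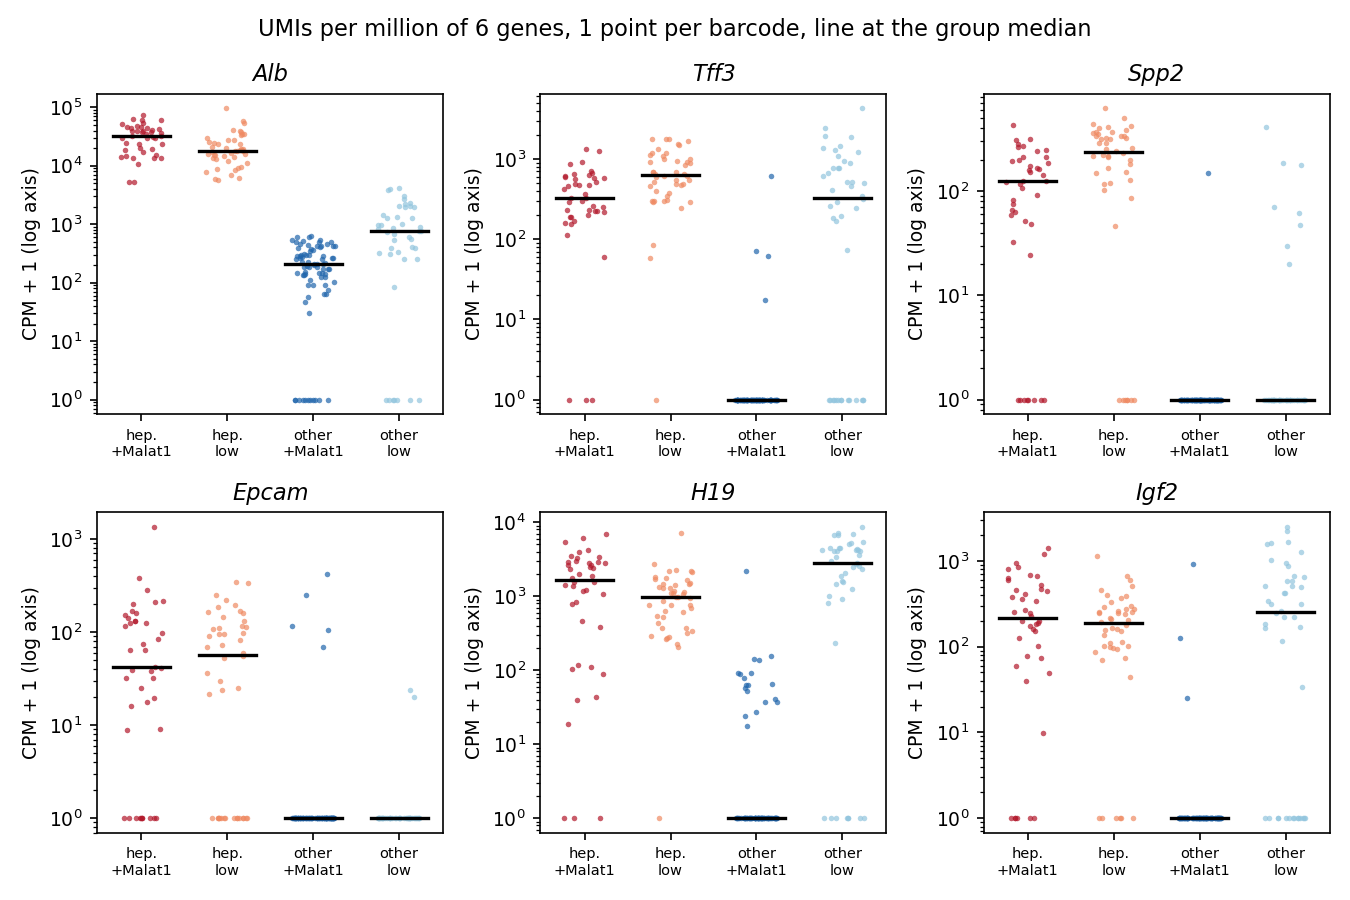
Each point is 1 barcode, with CPM + 1 on a log axis and a line at the group median, for Alb, Tff3, Spp2, Epcam, H19 and Igf2 in the members with Malat1 (n = 42), members low in Malat1 (n = 46), other barcodes with Malat1 (n = 80) and others low in Malat1 (n = 44). The other barcodes with Malat1 sit at 0 for most genes but Alb, while the others low in Malat1 reach the members' level of Tff3, H19 and Igf2 but not of Alb.

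The 3 genes targeted in the model gave few UMIs, and 3'-end counts do not show a deletion elsewhere in the gene. Rb1 had 28 UMIs in 16 of 42 members with Malat1, or 7.31 CPM (4.86 to 10.6), and 1 UMI in members low in Malat1. The other barcodes with Malat1 held 38.7 CPM (28.9 to 50.8). Rbl2 had 19 UMIs, or 4.96 CPM (2.99 to 7.74), against 31.3 CPM (22.5 to 42.3), and Rbl1 had 2 UMIs against 0.

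Applied to the early lesions, the same rule gave 62 of 2461 kept barcodes, 61 with Malat1. Their sum held 20478 CPM of Alb, 5729 CPM of H19, 32.0 CPM of Igf2, 180 CPM of Epcam and 5.64 CPM of Tff3 (6 UMIs), and 0 UMIs of Spp2, which allows up to 2.82 CPM. H19 was thus found in both libraries, in 44 of the 62 early members, with 1.76 CPM in the other kept early barcodes. Epcam was also found in both. In early lesions it had UMIs in 16 of the 62, a median of 0 CPM, and 190 CPM in the other kept barcodes. Tff3 and Spp2 were nearly all in the macroscopic library. Stage, animals and library cannot be told apart.

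RNA of leukocytes, endothelial cells and fibroblasts was close to absent from the members with Malat1. The pan-leukocyte gene Ptprc had 0 UMIs in all 42, which allows up to 0.783 CPM, against 379 UMIs or 203 CPM in the other barcodes, at least 260-fold lower. Macrophage markers took at most 0.0207% of a member's UMIs (median 0.00254%), endothelial markers at most 0.0212%, T and NK cell markers at most 0.00107% and stellate and fibroblast markers at most 0.0565%. Of 11 measured stellate genes 10 were at least 2-fold lower, and the exception was Rgs5, of pericytes, with 60.3 CPM and 3.04-fold higher. The cholangiocyte list did not share this: it took a median of 0.267% of a member's UMIs (0.0315 to 2.92), against 0.00236% in other barcodes with Malat1. Most of that was 1 gene, since the list took 0.300% of summed UMIs and Spp1 alone had 2417 CPM. Only 6 of its 11 genes were measured, and all Krt19 and Krt7 UMIs lay in the barcode described above. Igkc, an immunoglobulin chain, had 14.4 CPM in the members with Malat1 and 7334 CPM in the others, 511-fold lower (392 to 678), and Tmsb4x, an actin-binding peptide abundant in leukocytes, had 39.2 and 12228 CPM, 312-fold lower (266 to 369). In single other barcodes with Malat1 the lists reached 7.70% for macrophages and 41.6% for B cells.

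The members with Malat1 were set against all 124 other kept barcodes to describe what they express. Genes counted as measured had at least 10 CPM in 1 sum and at least 20 UMIs in both together. Among the 10072 such genes, 2058 were at least 2-fold higher in the members (20.4%) and 2290 at least 2-fold lower (22.7%), with a median log2 ratio of -0.02. The rule chose the members on this contrast, so these counts and those below are descriptions. Genes at 0 UMIs in 1 sum enter with a bound set at 3 UMIs of that sum.

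Genes for secreted plasma proteins had the highest median of the lists. Of 38 listed and measured, 36 were at least 2-fold higher and 0 lower, with a median log2 ratio of 4.19. Apob, the structural protein of very-low-density lipoprotein, had 849 CPM against 11.8 CPM, 71.9-fold higher (47.4 to 115). Itih4, an inter-alpha-trypsin inhibitor chain, had 892 against 9.12 CPM, 97.7-fold higher (60.9 to 168). Complement C3 had 3474 against 54.7 CPM, 63.4-fold higher (52.2 to 77.9). Outside the list, Pzp, a broad protease inhibitor, had 920 against 9.66 CPM, 95.2-fold higher (60.1 to 161). Together this list took a median of 12% of a member's UMIs with Malat1 (2.33 to 18.8) and 12.8% when low (7.32 to 25.5).

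Transcription factors of hepatocytes followed. Of 20 listed, 19 were measured and 17 were at least 2-fold higher, with 0 lower and a median log2 ratio of 2.21. Hnf4a, a nuclear receptor that maintains hepatocyte identity, had 160 against 9.12 CPM, 17.5-fold higher (10.9 to 30.3), and had UMIs in 36 of 42 members. Cebpa had 260 against 113 CPM (2.3-fold, 1.98 to 2.68) and Creb3l3, a membrane-bound factor of lipid metabolism, 214 against 11.3 CPM (19-fold, 12.3 to 30.8). Cebpb, which leukocytes also express, stood at 216 against 288 CPM.

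Zonal genes were uneven. In the normal liver lobule, hepatocytes near the portal vein and near the central vein express different enzymes. Of 20 measured periportal genes 16 were at least 2-fold higher and 1 lower (median log2 2.35), led by Pigr, the polymeric immunoglobulin receptor, with 776 against 6.44 CPM (121-fold, 68.9 to 234). Of 20 pericentral genes only 9 were measured, 6 of them at least 2-fold higher and 2 lower. Cyp2e1, the defining pericentral cytochrome P450, had 0 UMIs in members and others alike. Glul, glutamine synthetase of the innermost pericentral layer, had 43.6 CPM in the members against 101 CPM, 2.31-fold lower (1.87 to 2.87). Aldh1a1 and Cyp3a11, also of the pericentral list, had 264 against 38.6 CPM and 110 against 5.37 CPM. These ratios are against the other barcodes and not against hepatocytes of a known zone, so they do not place the members in a zone.

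Metabolic lists differed in how far they stood above the pooled other barcodes. Of 25 measured P450 and conjugation genes, 20 were at least 2-fold higher and 1 lower (median log2 3.82). Mgst1, a membrane glutathione transferase, had 769 against 120 CPM, 6.42-fold higher (5.60 to 7.39), while Gsta3 had 1266 against 788 CPM and Gstp1 1186 against 831 CPM. Of 24 fatty acid and cholesterol synthesis genes 20 were at least 2-fold higher and 0 lower (median 2.76), with Scd1, stearoyl-CoA desaturase, at 889 against 33.8 CPM (26.3-fold, 20.5 to 34.3) and Insig1, a brake on sterol synthesis, at 334 against 42.4 CPM (7.87-fold, 6.27 to 10.0). Of 21 urea cycle and amino acid genes 12 were at least 2-fold higher and 0 lower (median 1.13). Cps1, which starts the urea cycle, had 324 against 15 CPM, 21.6-fold higher (14.8 to 32.6). Bhmt and Sds, which break down homocysteine and serine, had 401 against 410 CPM and 364 against 353 CPM. On the other side these UMIs lay mostly in barcodes low in Malat1: 6 and 8 of the 80 others with Malat1 had a UMI, and 29 and 35 of the 44 others low in Malat1. Urea cycle and amino acid genes took 0.374% of the members' summed UMIs, 0.0217% in others with Malat1 and 0.669% in others low in Malat1. Lipid synthesis genes took 0.378%, 0.0550% and 0.106%, and P450 and conjugation genes 0.574%, 0.0415% and 0.683%. The order of the list medians thus holds for the pooled others and not for each group of them.

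Bile duct and progenitor genes were present in part. Of 30 listed, 19 were measured, 13 at least 2-fold higher and 1 lower (median log2 2.83). The list took 0.850% of the summed UMIs of members with Malat1. It took 0.125% in others with Malat1 and 0.545% in others low in Malat1, so these folds are against the pooled others. Spp1, osteopontin, had 2417 against 143 CPM, 16.9-fold higher (15 to 19.2), with UMIs in 41 of 42 members. Sox9, a duct and progenitor transcription factor, had 318 against 43.5 CPM (7.31-fold, 5.83 to 9.27), in 36 of 42, and Krt8 and Krt18, keratins that hepatocytes also make, had 963 against 321 CPM and 1184 against 666 CPM. Tm4sf4, a tetraspan protein, had 512 against 27.4 CPM (18.7-fold, 14.2 to 25.2). The defining duct keratins were all but missing, since the 4 Krt19 and 4 Krt7 UMIs lay in the barcode described above and leave the other 41 members at 0.

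Of the fetal and tumour genes, 13 of 23 were measured, 8 at least 2-fold higher and 1 lower (median log2 1.32). This list took 0.624% of the summed UMIs of members with Malat1. It took 0.0856% in others with Malat1 and 0.454% in others low in Malat1, so it did not set the members apart from the latter. Lcn2, lipocalin of acute inflammation and of many tumours, had 2516 against 199 CPM (12.6-fold, 11.4 to 14.1) in all 42 members. Other fetal markers were near the floor: Afp had 12 UMIs in 8 members, Gpc3 3 UMIs and Dlk1 2 UMIs. Of 14 measured Notch genes 1 was at least 2-fold higher and 9 lower (median -1.86). The 1 higher was Sox9. The receptor Notch2 had 50.9 against 28.4 CPM and Notch1 32.6 against 88.0 CPM, the ligand Jag1 5.22 against 24.2 CPM, and the target Hes1 294 against 300 CPM.

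Cell cycle lists stood above the pooled other barcodes by modest medians. Log2 ratios of single genes ran from -0.07 to 3.17 for G1/S and from -0.36 to 3.82 for G2/M. Of 48 G1/S and replication genes 24 were at least 2-fold higher and 0 lower (median log2 1.0), and of 55 measured G2/M genes 28 and 0 (median 1.31). The G1/S list took 0.360% of the members' summed UMIs, 0.135% in others with Malat1 and 0.357% in others low in Malat1. The G2/M list took 0.434%, 0.240% and 0.351%. Mki67 had 148 against 44.5 CPM (3.32-fold, 2.63 to 4.24) in 35 of 42 members, Top2a, topoisomerase of replicated DNA, 206 against 80.5 CPM (2.56-fold, 2.15 to 3.07) in 36, and Mcm7, a subunit of the replicative helicase, 171 against 73.5 CPM (2.33-fold, 1.93 to 2.82) in 38. Among the regulators of that step, 26 of 30 were measured, with 6 at least 2-fold higher and 6 lower. Ccnd1, the cyclin that drives phosphorylation of the retinoblastoma protein, had 3 UMIs in the members (0.783 CPM) and 339 in the others (182 CPM), a ratio of 232-fold lower (78.8 to 1132). Cdkn1a, a CDK inhibitor, had 376 against 158 CPM, 2.38-fold higher (2.10 to 2.71).

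Inflammatory genes divided by gene. Of 19 measured acute-phase genes 16 were at least 2-fold higher and 1 lower (median log2 3.30), among them Hp, haptoglobin, with 3726 against 296 CPM (12.6-fold, 11.6 to 13.7). Of 13 chemokines 6 were higher and 6 lower. Those higher included Cxcl10, an interferon-induced chemokine, with 393 against 94.5 CPM (4.16-fold, 3.56 to 4.90), and Cxcl1, with 180 against 24.2 CPM (7.46-fold, 5.51 to 10.3). Of 16 MHC genes 0 were higher and 7 lower. The class I genes H2-K1 and H2-D1 had 1996 against 1285 CPM and 1949 against 2901 CPM.

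Class II RNA, best known in antigen-presenting cells, was present in the members at a lower level. Cd74, the class II invariant chain, had UMIs in 41 of 42 members with Malat1 and 45 of 46 low in Malat1, from 0 to 2348 CPM (median 849) and from 0 to 3043 CPM (median 1107), while the macrophage gene Lyz2 had 43 UMIs in all 42. In the other barcodes with Malat1 the median was 0 and the highest 36194 CPM. After thinning to 5000 UMIs Cd74 was found in 36 of 38 and 44 of 45 members, against 25 of 68 other barcodes with Malat1. H2-Ab1 and H2-Aa, a beta and an alpha chain, had UMIs in 38 and 33 of 42 members, at 128 CPM (20.3-fold below the others, 18.5 to 22.3) and 47.8 CPM (54.8-fold below, 47.3 to 63.9). Free RNA from antigen-presenting cells could add to these UMIs, and its part was not tested.

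**Figure D3:**
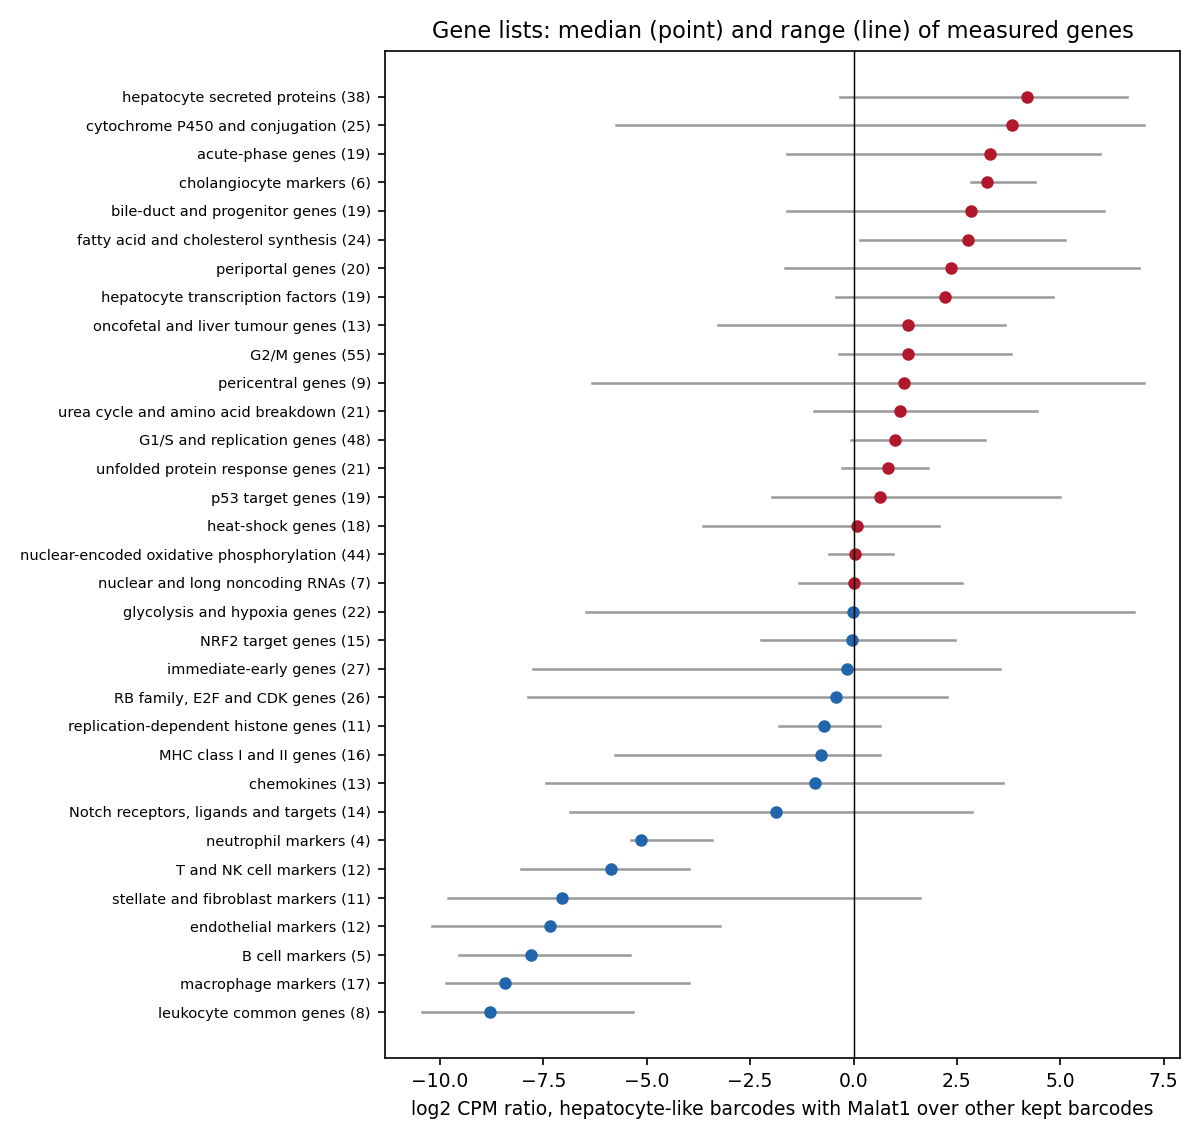
Log2 CPM ratio of members with Malat1 over the 124 other kept barcodes, as the median (point) and range (line) of the measured genes of each list, with the number measured in brackets. Secreted proteins sit highest at a median of 4.19, oxidative phosphorylation genes at 0.04, and the leukocyte list lowest at -8.78.

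Of 27 immediate-early genes 6 were at least 2-fold higher and 7 lower, and of 18 heat-shock genes 2 and 3. Nuclear-encoded oxidative phosphorylation genes lay close together, with 0 of 44 at least 2-fold higher or lower and log2 ratios from -0.59 to 0.95. Of 21 unfolded protein response genes 7 were at least 2-fold higher and 0 lower, with Hspa5, the main chaperone of the endoplasmic reticulum, at 1944 against 790 CPM (2.46-fold, 2.33 to 2.60).

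Members low in Malat1 were then set against members with Malat1. Among 8441 measured genes, 234 (2.77%) were higher by 2-fold or more when low, and 3757 (44.5%) lower by as much, around a median log2 ratio of -0.72. Relative to that median gene 2205 were at least 2-fold higher (26.1%) and 2670 lower (31.6%), and with median-of-ratios scaling, which moves the median to -0.03, the counts were 2108 and 2723. Log2 values below are relative to the median gene.

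Transcript length ordered this difference. Over 8336 genes with an annotated length (GENCODE M21), the Spearman correlation of length with the log2 ratio was -0.77 across genes, which are not independent, against 0.07 for the members with Malat1 over the other barcodes. Before that centring, 822 genes with transcripts under 1000 bases had a median log2 ratio of 0.58, and 257 genes of 8000 bases or more had -3.61, with 95.3% of them at least 2-fold lower and 0% higher. By barcode, transcripts of 4000 bases or more took a median of 9.69% of UMIs with Malat1 (3.37 to 29.2) and 2.63% when low (2.03 to 6.69). Their quartiles, 8.50 to 10.6% and 2.42 to 3.03%, did not overlap. Apob (13934 bases) stood at 849 CPM with Malat1 and 48.3 CPM when low, Plec, a cytoskeletal linker (14959 bases), at 98.4 and 3.12 CPM, and Apoa1, the main protein of high-density lipoprotein (1035 bases), at 8751 and 16419 CPM. Nuclear and mitochondrial RNA was also lower. After thinning to 5000 UMIs, mt-Atp6 had a median of 2 and a highest of 182 UMIs in members low in Malat1, with 30.3% in 1 barcode. Neat1 and Kcnq1ot1, both nuclear, had 285 and 310 UMIs with Malat1 and 1 UMI each when low, and mt-Nd1, mt-Co1 and mt-Atp6, mitochondrially encoded, were 23.8-fold (20.3 to 28.1), 21.8-fold (20.4 to 23.3) and 9.88-fold (9.5 to 10.3) lower when low in Malat1. Length, depth, mitochondrial share and Malat1 moved together here, and their separate parts were not tested.

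**Figure D4:**
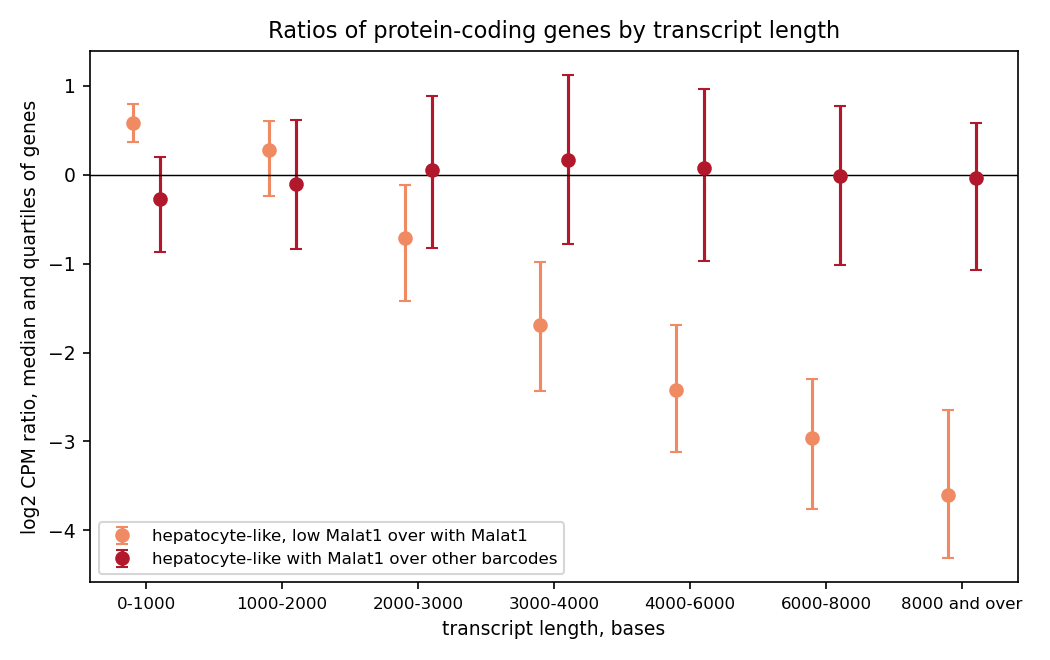
Median log2 CPM ratio (point) and quartiles (bar) of genes in 7 bins of transcript length in bases, not centred, for members low in Malat1 over members with Malat1 and for members with Malat1 over other barcodes. The first series steps down from 0.58 to -3.61 with length; the second stays between -0.28 and 0.17.

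Gene groups differed in this comparison. Only the secreted-protein list was set against other genes of like length within length bins. The nuclear noncoding RNA list, which includes Malat1, had the lowest median of the lists, at -4.23 relative to the median gene. All 18 measured replication-dependent histone genes were at least 2-fold higher relative to the median gene, with a median of 2.77, and 14 of them also before centring. Their median length was 734 bases, and genes under 1000 bases had a median of 1.31 relative to the median gene. By barcode the histone list took a median of 0.0493% of UMIs when low and 0.0299% with Malat1. In the sums it took 0.325% and 0.0789%, so a minority of barcodes carried much of the difference. Hist1h2ap, a core histone of S phase, had 309 CPM with Malat1 and 1680 CPM when low (relative log2 3.17), and Hist1h2ae 32.6 and 521 CPM (4.72). Mitotic genes went both ways. Ube2c (1579 bases), which marks mitotic proteins for destruction, had 111 and 418 CPM, while Top2a (5221 bases) had 206 and 49.1 CPM and Mki67 (10061 bases) 148 and 9.35 CPM. Cdk1, the mitotic kinase, had 134 and 333 CPM at a length of 2814 bases, where the median gene was lower (-0.71 before centring from 2000 to 3000 bases). In the whole G2/M list 17 of 55 were at least 2-fold higher and 19 lower relative to the median gene.

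Secreted-protein genes had 17 of 38 higher and 4 lower relative to the median gene, with a median of 0.98. Within length bins they lay a little above the other genes: 0.76 against 0.58 under 1000 bases, 0.41 against 0.28 from 1000 to 2000 bases and -0.68 against -1.09 from 2000 to 4000 bases, before centring. The 2 of 4000 bases or more, Apob and C3, were at -3.59, below the -2.67 of other genes. Hepatocyte transcription factors had 0 of 19 higher and 9 lower, and lipid synthesis genes 1 of 24 higher and 11 lower. Alb itself, at 34896 and 21723 CPM, stood close to the median gene (relative log2 0.04), as did Fos (0.03). Hamp, the iron hormone hepcidin, and Gsta1, an inducible glutathione transferase, were higher when low in Malat1, at 25.1 and 117 CPM (2.94) and 24.5 and 117 CPM (2.97). Tmsb4x and Lyz2 were higher in this sum through the 82498-UMI barcode with macrophage markers, which held 139 of 161 Tmsb4x UMIs. Tmsb4x had 125 CPM with that barcode and 18.3 CPM without it, and the log2 ratios of both genes reverse without the members that stand apart.

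Cell-to-cell variation was described in members with Malat1 after thinning to 5000 UMIs, in the 38 of 42 with enough. Of 1586 genes with a mean of at least 0.5 thinned UMIs, 111 (7.0%) had a variance over mean at least 2 times the median of the 100 genes nearest in mean. The 15 highest fell into few groups. Malat1 (21.9 times) and mt-Atp6 (10.8) track nuclear and mitochondrial RNA, and without the 5 members that stand apart they were at 3.27 and 5.02. Fos, Egr1, Jun, Junb, Atf3 and Ier2, immediate-early genes switched on within minutes of a stimulus, were at 5.58, 5.68, 5.10, 4.91, 7.05 and 5.29. Thinned to 2000 UMIs, Fos, Jun and Junb were at 1.78, 1.41 and 1.83, under the mark of 2, and Egr1, Atf3 and Ier2 at 3.72, 2.76 and 2.67. Gdf15, a stress-induced cytokine, was at 7.15 (2.0 thinned to 2000 UMIs), and Alb, Spp1, Orm1 and Ccl2 at 12.8, 9.38, 7.51 and 6.61.

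The immediate-early genes spanned a wide range and were high in largely the same barcodes. In the 24 members with Malat1 and at least 100000 UMIs, Fos had 0 UMIs in 7 and at most 2 in 11, yet at least 100 in 9, with a median of 4.5 and a highest of 399. Egr1, a zinc-finger factor of the same response, had 0 in 8 and a highest of 471, and Atf3 at most 2 in 11, at least 30 in 10 and a highest of 452. The sum of Fos, Jun, Junb, Atf3, Ier2 and Btg2 ran from 6 to 2348 UMIs with a median of 70. It was at most 30 in 9 of these barcodes, at least 200 in 11 and between in 4. Sums of 33, 35, 47, 93 and 202 filled the middle of the order. The counts thus depend on these cut-offs and show no separate states. The Spearman correlation with Fos over the 38 thinned barcodes was 0.86 for Btg2, 0.85 for Actg1, a cytoskeletal actin, 0.84 for Egr1, 0.79 for Junb and 0.79 for Atf3, where all pairs of the 1586 genes had a 99th percentile of 0.42. They were picked as the genes closest to Fos, so a place past that percentile follows from the choice. In 45 members low in Malat1 the correlations of these genes with Fos were 0.50, 0.58, 0.42, 0.47 and 0.59. These points share 1 library and 1 thinned depth. Fos correlated at 0.45 with the original depth, and the thinned sum of the immediate-early list at 0.32 with depth and -0.30 with mitochondrial share; their part in the pattern was not tested.

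**Figure D5:**
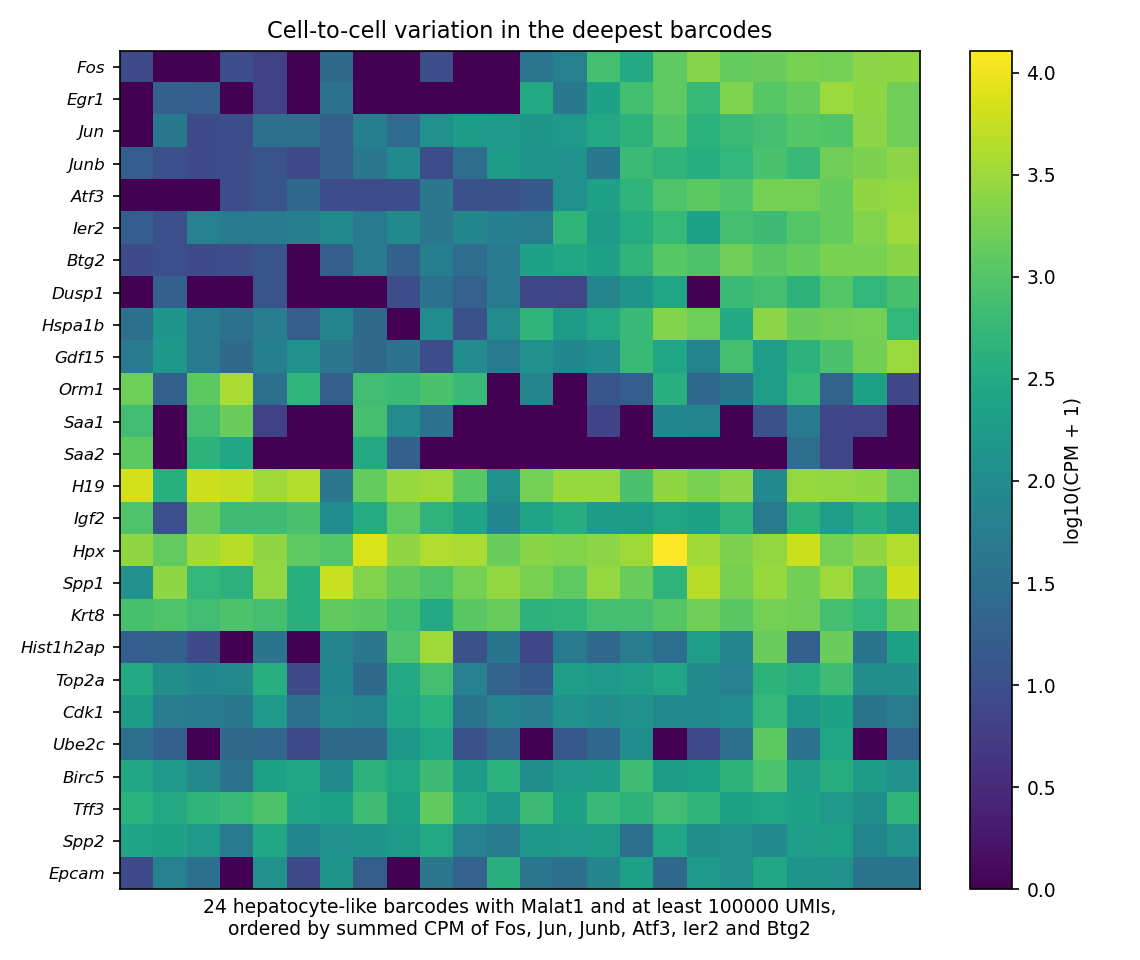
Colour shows log10(CPM + 1) of genes (rows) in the 24 members with Malat1 and at least 100000 UMIs (columns), ordered by the summed CPM of Fos, Jun, Junb, Atf3, Ier2 and Btg2. The immediate-early rows at the top follow that order, Saa2 is at 0 in 17 columns, and Tff3 and Spp2 have UMIs in all 24.

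Sequence upstream of the start was read for the listed immediate-early genes that passed the variation mark, whether or not they varied together. Promoters of this response are known for cAMP-response and related elements. In the 250 bases before the RefSeq start (GRCm38.p6), with both strands searched, the full element TGACGTCA was found in 2 of 9 variable immediate-early genes and in 1.55% of all 32851 promoters, and its core TGACG, which the full element contains, in 5 of 9 (55.6%) and in 17.8%. Among all 23 matched genes of the immediate-early list the core was in 13 (56.5%), so the share did not set the variable genes apart from the list. The 9 were Atf3, Btg2, Dusp1, Fos, Ier5, Jun, Junb, Jund and Zfp36; Egr1 and Ier2 were not matched. TGANTCA, the element bound by Fos and Jun dimers, was in 0 of 9 and 6.75% of promoters, and the CArG box of serum response factor in 1 of 9 (Zfp36) and 1.47%. A match is a run of letters and shows no binding. Elements farther than 250 bases before the start, and any of Egr1 and Ier2, were outside the search. Fos is shown as the gene the correlations were taken with, and Btg2 and Dusp1 because they hold the full element. Each runs 5′ to 3′ toward the start, with matches in capitals, for Fos at chr12:85473640-85473889 on the plus strand, Btg2 at chr1:134079156-134079405 on the minus strand and Dusp1 at chr17:26508473-26508722 on the minus strand.
Fos: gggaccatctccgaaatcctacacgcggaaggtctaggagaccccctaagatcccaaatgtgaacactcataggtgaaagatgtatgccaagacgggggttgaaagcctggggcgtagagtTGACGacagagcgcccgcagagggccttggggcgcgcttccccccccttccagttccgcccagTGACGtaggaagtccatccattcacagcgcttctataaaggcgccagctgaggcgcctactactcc
Btg2: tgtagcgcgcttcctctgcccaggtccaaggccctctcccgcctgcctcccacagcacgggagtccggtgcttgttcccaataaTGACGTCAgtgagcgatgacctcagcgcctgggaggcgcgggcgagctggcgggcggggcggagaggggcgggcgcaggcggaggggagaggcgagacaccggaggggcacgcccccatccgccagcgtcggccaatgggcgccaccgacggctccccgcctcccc
Dusp1: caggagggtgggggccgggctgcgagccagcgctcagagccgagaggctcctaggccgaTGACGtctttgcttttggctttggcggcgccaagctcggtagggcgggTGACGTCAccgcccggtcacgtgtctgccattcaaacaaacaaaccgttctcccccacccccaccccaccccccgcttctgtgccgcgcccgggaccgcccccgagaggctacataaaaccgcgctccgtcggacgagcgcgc

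The TGACG copies of Fos began 129 and 66 bases before its start, and TGACGTCA lay 166 to 159 bases before the start of Btg2, an antiproliferative factor, and 143 to 136 before that of Dusp1, a phosphatase that shuts off MAP kinases. In the 24 deep members Btg2 ran from 0 to 367 UMIs (median 20.5), with at most 2 in 8, and Dusp1 from 0 to 165 (median 2), with at most 2 in 13.

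Summed values hid this spread. Fos had 712 CPM in the summed members with Malat1 and 440 CPM in those low in Malat1, but a median per barcode of 8.38 and 431 CPM. In the 26 members low in Malat1 with at least 20000 UMIs, Fos had 0 UMIs in only 2, with a median of 14 and a highest of 60. Relative variation of Fos was 1.69 in the low group.

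Orm1 and Spp1 were inversely related in members with Malat1. Orm1, an orosomucoid, ran from 0 to 462 UMIs in the 24 deep members (median 22.5), and 30.1% of its UMIs in members with Malat1 lay in 1 barcode. The serum amyloids were rarer: Saa1 was at 0 in 10 of 24 (highest 175) and Saa2 at 0 in 17 (highest 150). Over 38 barcodes Orm1 correlated at 0.59 with Saa1, 0.75 with Gnmt, a methyltransferase of methionine metabolism, and 0.73 with Scd1, and at -0.69 with Spp1, where the 1st percentile of all pairs was -0.39. Gnmt and Scd1 were picked as the closest to Orm1 of 1585 genes and Spp1 as the most opposed. A place past that percentile therefore follows from the choice. Spp1 in turn correlated at 0.58 with Krt8, which was likewise picked as the closest to it. The lists of Orm1 and Spp1 were less inversely related. Thinned sums of the acute-phase list correlated at -0.27 with the bile duct and progenitor list and -0.41 with the cholangiocyte markers. In members low in Malat1 the Orm1 and Spp1 correlation was -0.02 and that of Spp1 and Krt8 -0.14. Without the 2 called doublets, which held 600 and 460 Spp1 UMIs, the relative variation of Spp1 was 2.86.

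H19 and Igf2 varied together across barcodes. In the 24 deep members H19 ran from 5 to 871 UMIs (median 370.5) and Igf2 from 1 to 180 (median 42.5). Their correlation was 0.78 over 38 barcodes with Malat1 and 0.46 over 45 low in Malat1. H19 also followed Serpind1, heparin cofactor (0.76), and Alb (0.63) with Malat1, while with Alb it was 0.19 when low. The rule used Alb, so that last relation is within a chosen range. Igf2 and Serpind1 were the closest to H19 of 1585 genes with Malat1, so high values there follow from that place. H19 correlated at 0.36 with the original depth, and the part of depth was not tested.

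Proliferation genes differed in how they were spread. Top2a, Cdk1 and Birc5, a mitotic survival protein, had UMIs in all 24 deep members, with medians of 17, 12.5 and 31.5 UMIs. Hist1h2ap had at least 100 UMIs in 4 of 24 deep barcodes and at most 2 in 7, and 53.5% of its thinned UMIs lay in 1 barcode. It correlated at 0.70 with Cdk1, the closest to it of 1585 genes, so a high value follows from the choice. Hist1h2ap had UMIs in only 9 of the 38 thinned barcodes. Ube2c had 243 of its 427 UMIs in the deepest barcode (207658 UMIs), and its level dropped from 111 to 50.8 CPM without it. Mki67, with 0 to 74 UMIs (median 20), was at 0 in 1 of 24. In members low in Malat1 thinned sums of the G2/M list correlated at 0.68 with those of the histone list and at -0.46 with those of the G1/S list, against 0.32 and -0.12 with Malat1. The immediate-early and G2/M sums were close to unrelated, at 0.02 and 0.13.

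Some genes among the 15 had a large share of their UMIs in 1 barcode. Ccl2, a monocyte chemokine, had 291 of 609 UMIs in a barcode of 104485 UMIs with 0.518% Alb, was at 0 in 13 of 24 deep members, and dropped from 159 to 85.3 CPM without that barcode. Tmsb4x had 63.6% of its thinned UMIs in 1 barcode. Gdf15 had 38.9% in 1 barcode but at least 30 UMIs in 8 of 24 deep members. Outside the 15, Ccl20, a chemokine for dendritic and T cells, had 196 of 501 UMIs in the deepest barcode.

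In members low in Malat1, 104 of 1429 genes (7.28%) passed the same mark in 45 thinned barcodes. The highest were mt-Atp6 (57.5), Alb (34.1) and mt-Co1 (33.7). Mitochondrial UMIs were at least 1% in 6 of these members. Hist1h2ap (14.2), Lcn2 (9.45), Hp (9.31), Fabp1, a fatty acid carrier (8.55), and Orm1 (8.36) were also high. Cyp2a5, a pericentral and inducible P450, was at 12 with 50% of its thinned UMIs in 1 barcode. Lcn2 spanned 102 to 15175 CPM by barcode (median 3202) and Hp 1322 to 20326 CPM (median 4826), so acute-phase RNA was found in all 46 at levels that differed widely.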

How the data were processed

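Both libraries, of YFP-sorted cells, were made with 10x 3' v3 chemistry. Unnormalized UMI counts per gene and barcode were deposited by the authors, made with Cell Ranger 3.0.2 per the file headers and mm10 per the submitters' processing notes, which also name Seurat 2.3.0 with no role given. The macroscopic matrix held 256 barcodes and 7271368 UMIs, the early one 3221 and 12637053, of which 212 and 2461 passed the stated limits. Counts were summed over barcodes and given as CPM with exact Poisson 95% intervals, ratios with exact conditional binomial intervals and shares with Clopper-Pearson intervals. With 1 library per stage no test was possible. A sum of 0 allows up to 3 UMIs. Variation was measured after thinning to 5000 UMIs (seed 1). The steps were tested on simulated data. Doublets were called with Scrublet in Scanpy 1.11.5 and kept, and alternatives leave them out. Other tools were Python 3.11.15, NumPy 2.4.6, SciPy 1.17.1 and pandas 2.3.3. Named genes were the markers, the 12 with the largest ratio in each direction, the 15 most variable the 3 of each list with the highest CPM and the closest correlates of variable genes. Further genes, among them Hnf4a, Cps1, Glul, Tm4sf4, Notch1, Ccnd1, Top2a, Mki67, Cd74, Ptprc, Krt19 and Afp, were chosen after their values were seen. Members and gene lists were chosen with earlier results of these data known.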

Additional observations from a re-analysis of the deposited data

How the results depend on the processing

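Counts of genes depended most on how many UMIs enter. Of genes higher in members with Malat1 than in other barcodes (2058), 812 were counted after thinning and 838 at a minimum of 50 CPM and 100 UMIs, and of those lower (2290) 1239 and 797; both alternatives measure fewer genes by construction. For members low in Malat1 against those with it, the 234 higher became 368 with barcodes weighted equally, 2108 with median-of-ratios scaling, 149 outside mitochondrial genes, 129 at 50 CPM and 670 with no filter, and the 3757 lower became 504 thinned and 915 at 50 CPM. Relative to the median gene, the 2205 higher became 151 and 61 and the 2670 lower 601 and 978 in those last 2 settings. Variable genes (111) numbered 39 when thinned to 2000 UMIs and 218 at 10000. Tmsb4x, higher in the sum low in Malat1, reversed to a log2 ratio of -0.94 with equal weights, -0.66 thinned and -0.90 without the members that stand apart, and Lyz2 to -1.56 in the last. The alternatives that leave out members that stand apart or called doublets were chosen after seeing the data. Members numbered 77 to 100 over the limits tried, and 45.5 to 52.0% of them had Malat1. Other causes of these shifts were not tested. No paired analysis was possible because each stage has 1 library and no result comes from a test.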
